A study of Mus musculus with 24 samples.

Results

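The net change of gene expression across a differentiation was measured in 3 wild-type (wt) mouse embryonic stem cell (mESC) lines, comparing their libraries of day 3 with their libraries of day 0. The comparison used the 6 samples that the labels give as wt on day 0 or day 3, of 24 in the series, and every gene of the deposited count table. All lines were male and primary, from the cross of a Castaneus mother with a father that carried a deleted and a floxed Smchd1 allele and an MMTV-Cre transgene on a C57BL/6 background, so that each line was an F1 hybrid. The wt lines are labelled Smchd1 fl/+ and kept a floxed paternal allele that the labels call wild-type, and the 3 other lines of the series (het) carried the deleted allele instead (Smchd1 del/+). Day 0 was growth in serum medium with leukaemia inhibitory factor (LIF), to which the lines had been moved from inhibitor medium. The lines were then taken through N2B27 medium with basic fibroblast growth factor and, from day 2, the Wnt pathway agonist CHIR99021, towards neuromesodermal progenitors (NMPs). The days differ in medium, added factors, seeding density and time together, and these cannot be told apart. Each genotype is represented by 3 lines, cells were not sorted, and in bulk RNA fewer cells of a type and less RNA per cell cannot be told apart.

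Mouse ES cells are held in a naive pluripotent state by a circuit of transcription factors around Pou5f1, Sox2, Nanog and Esrrb, which LIF signalling sustains. When LIF is withdrawn, cells pass through a state like the epiblast before gastrulation. Wnt and FGF signals then direct the epiblast to a posterior fate, in which T (brachyury), Nkx1-2 and the Cdx genes come on together with the Hox clusters, and from which both spinal cord and trunk mesoderm arise.

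Library totals ranged from 14.4 to 17.8 M counts (M, 1e6) on day 0 and from 16.04 to 20.8 M on day 3. Between libraries of the same day, log2 levels correlated at 0.973 to 0.988 across genes. The library of line 1 on day 0 held the fewest genes with a count, 16821 against 18446 to 19283 in the other 5 libraries. Genes of chromosome 8 were higher in line 1 than in the mean of the other lines, with a median log2 difference of 0.179 on day 0 and 0.207 on day 3 over 664 genes, while no other median of a chromosome in a line was over 0.116 in size. Of the genes tested on chromosome 8, 55.7% were called between the days, beside 53.6% of all genes tested. Smchd1, the gene targeted in the het lines, gave 131, 145 and 148 CPM (counts scaled to 1e6 a library) in wt lines 1, 2 and 3 on day 0 and 165, 209 and 205 CPM on day 3 (log2 fold change 0.45 ± 0.11, SE, adjusted p = 0.00391, not called without line 3). The het lines gave 94.4 ± 6.005 CPM on day 0 and 106 ± 1.83 CPM on day 3 (mean ± SD, n = 3), below every wt library of the same day. Values of 3 libraries are given in the order of lines 1, 2 and 3 throughout.

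Most genes tested differed in level between the days. Of 15488 genes that passed the filter on low counts, 4189 were called higher on day 3 (27%) and 4117 lower (26.6%), 53.6% in all, at a Benjamini-Hochberg adjusted p under 0.05 in edgeR's quasi-likelihood test. The counts of each gene list below stand against these shares of 27% and 26.6%. Of the called genes, 4167 of the higher and 4092 of the lower ones moved the same way in 3 of 3 lines. The levels of the 2 days did not overlap for 8126 of the called genes, beside 62.7% of all genes tested. The fitted log2 fold change had a median of 0.03 over all genes tested and a median size of 1.00 over the called genes. No gene called there and under any of 18 alternative settings differed in direction between them. Changes of more than 4-fold were called for 916 higher and 832 lower genes, and changes of more than 16-fold for 246 and 203. Genes called higher made up 19.4% of the summed mean CPM on day 0 and 35.0% on day 3, and genes called lower 44.6% and 27.3%. A set of 90 genes was called higher from 0 counts in all 3 day 0 libraries, and 41 were called lower to 0 counts in all 3 day 3 libraries. Tested against a change of 2-fold in place of no change, the calls numbered 1157 higher and 1078 lower.

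**Figure D1:**
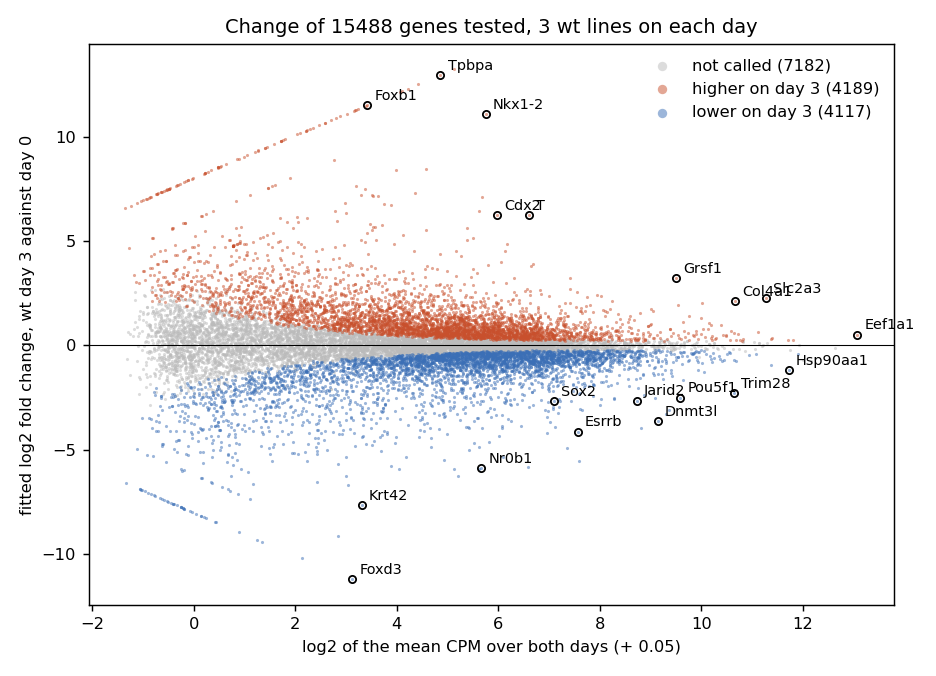
Fitted log2 fold change of each gene tested, wt day 3 against day 0 (y axis), against log2 of the mean CPM over both days plus 0.05 (x axis). Grey points are the genes not called, red points the 4189 called higher and blue points the 4117 called lower; the straight rows of points at the upper and lower left are genes with 0 counts on one of the days, whose fitted value depends on the prior count.

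The naive pluripotency genes fell almost as a body. Of the 16 genes of this list, 14 fell and 1 rose, with a median log2 fold change of -3.26 against 0.03 over all genes tested. Esrrb, an orphan nuclear receptor of the naive circuit, read 368, 357 and 352 CPM on day 0 and 24.9, 12.6 and 23.04 CPM on day 3 (log2 fold change -4.15 ± 0.20, SE, adjusted p = 9.52e-09). Nr0b1 (Dax1), another nuclear receptor, went from 121, 84.02 and 94.4 to 2.18, 1.397 and 1.39 CPM (-5.88 ± 0.22, adjusted p = 1.67e-09), the largest fitted fall on this list. Zfp42 (Rex1), a zinc finger protein used as a reporter of the naive state, went from 236, 218 and 267 to 20.2, 17.6 and 19.2 CPM (-3.66 ± 0.12, adjusted p = 8.24e-10). In each of these the lowest day 0 library lay above the highest day 3 library. Nanog, a homeodomain factor, kept 45.04, 23.6 and 59.02 CPM on day 3 from 332, 386 and 329 on day 0 (-3.03 ± 0.24), and the Krüppel-like factors Klf4, Klf2 and Klf5 fell (-3.23 ± 0.19, -3.59 ± 0.34 and -0.81 ± 0.14). The exceptions were Tbx3, a T-box factor with 26.7, 24.9 and 26.8 CPM on day 0 and 15.2, 29.9 and 25.3 CPM on day 3 (adjusted p = 0.562, groups overlapping), and Gbx2, a homeobox factor of naive cells and also of the posterior epiblast and hindbrain. Gbx2 rose from 36.6, 23.7 and 20.96 to 48.3, 34.9 and 36.8 CPM (0.56 ± 0.20, adjusted p = 0.0339), with day 0 of line 1 above day 3 of line 2, and it was not called when any of 4 single libraries was left out.

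Zfp42 carries the octamer letters ATGCAAAT, which POU factors such as Oct4 bind, in its promoter window of 250 bases before to 50 after the annotated start (RefSeq, GRCm38.p6, chr8:43306960-43307259, minus strand), and the window is shown for that reason, with the match on either strand in capitals:
Zfp42: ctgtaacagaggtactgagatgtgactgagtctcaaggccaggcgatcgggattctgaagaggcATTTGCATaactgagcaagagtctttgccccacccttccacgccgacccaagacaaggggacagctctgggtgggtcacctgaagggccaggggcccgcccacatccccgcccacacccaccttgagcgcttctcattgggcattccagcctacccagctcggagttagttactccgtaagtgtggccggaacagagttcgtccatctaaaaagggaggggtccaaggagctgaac
The octamer letters stand in 1.74% of all 32851 promoter windows, 1.38% of the windows of genes tested, 1.25% of those of genes called higher and 1.32% of those of genes called lower. Of the naive list, 11 genes had a window and Zfp42 was the 1 with a match, while 3 of 9 genes with a window on the caudal list given further on (Cdx2, Cdx4 and Evx1) and Tpbpa, of the 10 largest rises, held the letters too. A match describes the letters and is not evidence of binding.

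Most general pluripotency genes fell too, but not all. Of 13 genes, 11 fell and 2 rose (median log2 fold change -2.65). Pou5f1 (Oct4; chr17:35506018-35510772 on GRCm38), the POU factor of the pluripotent state, read 1417, 1164 and 1343 CPM on day 0 and 274, 190.2 and 229 CPM on day 3 (-2.50 ± 0.13, adjusted p = 1.93e-08), so that the lowest day 3 library still held 190.2 CPM. Sox2, its partner and also a neural and NMP factor, went from 278, 227 and 206 to 31.1, 39.7 and 39.5 CPM (-2.69 ± 0.14, adjusted p = 1.82e-08). Foxd3, a forkhead repressor of the stem cell and epiblast, went from 23.2, 13.7 and 15.2 CPM to 0 counts in all 3 day 3 libraries, which is at least 318-fold lower with 3 counts over the group as floor. Tdgf1 (Cripto), the co-receptor of Nodal, and L1td1, an RNA-binding protein, fell too (-3.97 ± 0.18 and -3.09 ± 0.11). The RNA-binding proteins Lin28a and Lin28b, which block maturation of let-7 miRNAs, rose, Lin28a from 554, 612 and 556 to 778, 779 and 793 CPM (0.45 ± 0.08, adjusted p = 0.000512, not called without line 3) and Lin28b by 0.64 ± 0.11 on the log2 scale.

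Readouts of LIF signalling fell with them. Socs3, the feedback inhibitor that STAT3 induces, went from 111, 87.8 and 104 to 11.6, 10.4 and 15.5 CPM (-3.02 ± 0.16, adjusted p = 2.63e-08), and 6 of the 8 genes of this list fell while Jak1 rose and the receptor subunit Il6st read 87.4, 101 and 106 and 72.9, 105 and 88.95 CPM, not called. The LIF receptor gene Lifr and Stat3 itself fell (-1.08 ± 0.22 and -1.10 ± 0.12).

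Genes of the formative and primed epiblast were mostly lower at the end than at the start. Of 12 genes, 9 fell and 2 rose (median log2 fold change -1.55). Otx2, the homeobox factor of the early epiblast and forebrain, went from 54.4, 70.8 and 54.9 to 4.72, 1.22 and 3.27 CPM (-4.25 ± 0.32, adjusted p = 3.32e-07). Fgf5, the ligand that marks the primed epiblast, went from 9.301, 12.1 and 10.7 to 0.908, 0.121 and 0.665 CPM (-4.18 ± 0.48, adjusted p = 1.27e-05). Both were already transcribed on day 0 in each line. Sox4 and Sall2 were the 2 that rose, by 0.62 ± 0.15 and 0.64 ± 0.20 on the log2 scale, although Sall2 was not called when any of 3 single libraries was left out.

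**Figure D2:**
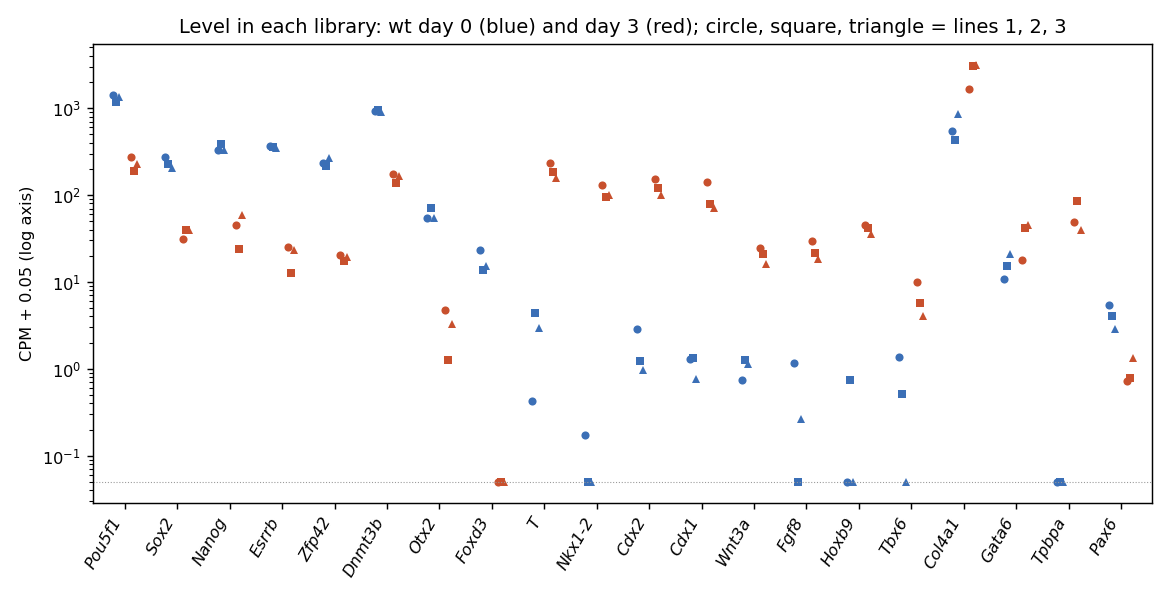
CPM plus 0.05 of 20 genes on a log axis in each wt library, blue for day 0 and red for day 3, with circle, square and triangle for lines 1, 2 and 3; the dotted line is 0 counts. The pluripotency genes on the left are higher on day 0 in all 3 lines, T to Tbx6 are higher on day 3 in all 3 lines, and Gata6 overlaps between the days because line 1 on day 3 lies below line 3 on day 0.

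The genes that define the caudal epiblast and the NMP came on. Of 17 genes on this list 16 passed the filter, 15 rose and none fell (median log2 fold change 5.41), and their summed level went from 47.1 to 52.8 CPM in the day 0 libraries to between 859 and 1229 CPM on day 3. T (chr17:8434423-8442496), the T-box factor of primitive streak and NMP, read 0.374, 4.36 and 2.86 CPM on day 0 and 236, 183 and 158 CPM on day 3 (6.23 ± 0.40, adjusted p = 9.76e-08). Nkx1-2 (chr7:132594878-132599637), a homeobox factor of the caudal lateral epiblast, had 2 counts in the day 0 libraries together and 129.8, 94.2 and 99.2 CPM on day 3, a ratio of 2594-fold (counting interval 718 to 21426), adjusted p = 8.24e-10. Both genes were highest in line 1 on day 3. The Cdx factors link Wnt and FGF signals to the Hox clusters. Cdx2 went from 2.81, 1.16 and 0.9298 to 151, 119.8 and 100.2 CPM (6.22 ± 0.29, adjusted p = 7.49e-09), Cdx1 from 1.25, 1.28 and 0.715 to 140.5, 79.2 and 71.3 CPM (6.46 ± 0.32, adjusted p = 1.27e-08) and Cdx4, which is X-linked, from 3.06, 2.68 and 1.57 to 112, 93.5 and 57.9 CPM (5.15 ± 0.28). On day 3 line 1 was the highest and line 3 the lowest for each of the 3 Cdx genes, and no day 3 library came near the day 0 range.

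Ligands and enzymes of the same territory rose as well. Wnt3a, the Wnt ligand of the tail bud, went from 0.687, 1.22 and 1.07 to 24.4, 21.02 and 16.2 CPM (4.36 ± 0.30, adjusted p = 1.65e-07) and Fgf8 from 1.12, 0 and 0.215 to 29.4, 21.7 and 18.4 CPM (5.68 ± 0.57, adjusted p = 4.45e-06). Rspo3, which amplifies Wnt signals at the receptor, went from 0, 0.233 and 0.0715 to 24.4, 20.6 and 16.4 CPM (7.50 ± 0.47). Cyp26a1, which clears retinoic acid from the tail end, went from 1.87, 3.43 and 4.51 to 26.8, 37.1 and 44.4 CPM (3.47 ± 0.29). The members that did not rise were Fgf17, with 17.04, 10.5 and 11.4 CPM on day 0 and 12.7, 9.23 and 5.68 CPM on day 3 (adjusted p = 0.183), and Hes3, which was below the filter at under 1 CPM in all 6 libraries. Set against the name of the target cell, T, Nkx1-2, Cdx2, Wnt3a and Fgf8 rose while Sox2 fell to 31.1 to 39.7 CPM, and bulk libraries do not show whether T and Sox2 were held by the same cells.

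Targets and feedback genes of canonical Wnt signalling largely rose, with the agonist CHIR99021 in the medium from day 2. Of 15 genes, 10 rose, 3 fell and 2 were not called (median log2 fold change 1.21). Axin2, the negative feedback scaffold, went from 6.55, 8.03 and 10.7 to 107, 79.3 and 54.2 CPM (3.26 ± 0.25, adjusted p = 3.98e-07). Tnfrsf19 (Troy), a receptor that Wnt induces, went from 5.31, 10.8 and 7.29 to 155, 109.5 and 108 CPM (3.99 ± 0.23, adjusted p = 4.45e-08). In both, line 1 was the highest on day 3. Dkk4, a secreted Wnt antagonist, went from 0 counts in all 3 day 0 libraries to 26.1, 16.5 and 12.5 CPM, at least 301-fold higher (adjusted p = 4.56e-07). Nkd1, Rnf43 and Znrf3, which all dampen the pathway, rose by 4.87 ± 0.33, 4.42 ± 0.42 and 1.01 ± 0.17 on the log2 scale. The 3 that fell were Lef1, Tcf7l1 and Ccnd1, of which Tcf7l1, a repressor that acts on naive genes, went from 78.8, 56.3 and 56.1 to 16.1, 14.5 and 15.2 CPM (-2.06 ± 0.16, adjusted p = 4.65e-07). Among the DNA-binding TCF factors Tcf7 rose (1.32 ± 0.14). Lef1 read 67.7, 68.8 and 53.9 and 56.03, 28.5 and 41.8 CPM (adjusted p = 0.0252), with overlapping groups, and it was not called when any of 4 single libraries was left out.

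Promoter letters for TCF/LEF factors (CTTTGAT, both strands) are shown for the members that held them, Sp5 of the caudal list, Tnfrsf19 of the Wnt list and Psg29 of the 10 largest rises given further on. The match is in capitals and the windows are 5′ to 3′ on the gene's strand (RefSeq, GRCm38.p6, Sp5 chr2:70474673-70474972 plus strand, Tnfrsf19 chr14:61037938-61038237 minus strand and Psg29 chr7:17203227-17203526 plus strand):
Sp5: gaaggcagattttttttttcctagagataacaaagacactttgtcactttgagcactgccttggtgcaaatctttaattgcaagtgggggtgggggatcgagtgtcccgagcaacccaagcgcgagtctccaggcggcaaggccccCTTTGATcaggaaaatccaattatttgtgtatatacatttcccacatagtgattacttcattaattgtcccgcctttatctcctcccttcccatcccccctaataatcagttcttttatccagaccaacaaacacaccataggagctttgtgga
Tnfrsf19: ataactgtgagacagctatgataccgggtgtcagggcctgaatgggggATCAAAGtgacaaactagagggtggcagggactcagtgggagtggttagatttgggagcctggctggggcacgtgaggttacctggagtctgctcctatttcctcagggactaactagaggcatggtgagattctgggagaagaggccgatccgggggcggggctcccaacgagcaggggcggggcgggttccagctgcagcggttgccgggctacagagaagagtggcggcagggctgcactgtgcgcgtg
Psg29: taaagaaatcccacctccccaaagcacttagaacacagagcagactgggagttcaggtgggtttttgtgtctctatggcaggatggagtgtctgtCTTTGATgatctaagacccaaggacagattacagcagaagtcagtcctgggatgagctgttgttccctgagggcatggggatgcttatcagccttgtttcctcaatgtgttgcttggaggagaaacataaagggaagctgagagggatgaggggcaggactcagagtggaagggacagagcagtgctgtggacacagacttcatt
Sp5, a zinc finger factor that Wnt induces, went from 0.0624, 0.6401 and 0.429 to 30.1, 17.98 and 17.5 CPM (5.82 ± 0.45, adjusted p = 4.69e-07). The TCF/LEF letters stood in 2.52% of the windows of genes called higher, 2.99% of those of genes called lower, 2.56% of those of genes tested and 3.73% of all windows. The ESRRB letters AAGGTCA stood in 2.89%, 3.42%, 3.33% and 4.72%. They stood in no window of the 10 largest falls (6 with a window), in those of Ctsj and Prl2b1 of the 10 largest rises (7 with a window), and in that of Tcf7 of the Wnt list. Of the Wnt list and of the caudal list, 9 genes each had a window, and 1 of each held the TCF/LEF letters. A match also stood in the window of 9630028I04Rik, of the 10 largest falls. These shares describe 300 bases around a start and say nothing of other sites.

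Wnt ligands changed unevenly. Of 19 genes 10 passed the filter, 7 rose and 1 fell (median log2 fold change 2.94). Wnt5b, a ligand of convergent extension, went from 3.25, 2.39 and 4.005 to 55.2, 41.98 and 37.2 CPM (3.81 ± 0.23, adjusted p = 5.66e-08) and Wnt8a from 6.74, 6.52 and 6.72 to 96.8, 73.5 and 81.4 CPM (3.65 ± 0.15, adjusted p = 2.85e-09). Wnt7b was the 1 that fell, from 10.2, 13.5 and 16.02 to 3.22, 2.67 and 2.72 CPM (-2.20 ± 0.27). Wnt3, the ligand of the early streak, had 5.12, 2.27 and 1.79 and 4.22, 2.98 and 3.33 CPM, not called.

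Nearly all Hox genes of groups 1 to 9 rose, and few of groups 10 to 13. All 12 genes of paralogue groups 1 to 4 rose, as did 14 of the 15 genes of groups 5 to 9, the exception being Hoxa6, which was below the filter with 0 counts on day 0 and 0.318, 1.46 and 0 CPM on day 3. The median fitted log2 fold changes were 7.43 and 7.74, and with the 5 and 8 genes that had 0 counts throughout day 0 set at their lower bound they were 5.63 and 6.15. Hoxb1 went from 0, 0.0582 and 0.358 to 67.7, 40.1 and 34.9 CPM (8.46 ± 0.49, adjusted p = 4.4e-08). Hoxb9, the most posterior gene of the Hoxb cluster before Hoxb13, went from 0, 0.698 and 0 to 44.7, 42.04 and 35.98 CPM (7.30 ± 0.51, adjusted p = 1.79e-07). Hoxb8 and Hoxa3 had 0 counts on day 0 and were at least 236-fold and 281-fold higher on day 3, at 17.5, 15.4 and 11.2 and 18.2, 19.99 and 15.3 CPM.

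Per length of transcript, on the log2 RPKM scale of the deposited Hox table, all 38 Hox genes reported here lay below 0 in all 3 day 0 libraries and 19 lay above 0 in all 3 day 3 libraries. Among them the highest day 3 levels were those of Hoxb1 at 4.28 ± 0.54 (mean ± SD, n = 3) and Hoxb9 at 3.97 ± 0.19 log2 RPKM. Hoxb1 overlapped with Hoxb9 between lines, while the next in order, Hoxb8 at 2.44 ± 0.36 and Hoxb2 at 2.35 ± 0.26, overlapped with each other and lay below both in every library. Among Hoxb1 to Hoxb9 the lowest was Hoxb5, at -0.73 ± 0.50 log2 RPKM, between the higher Hoxb4 and Hoxb6.

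**Figure D3:**
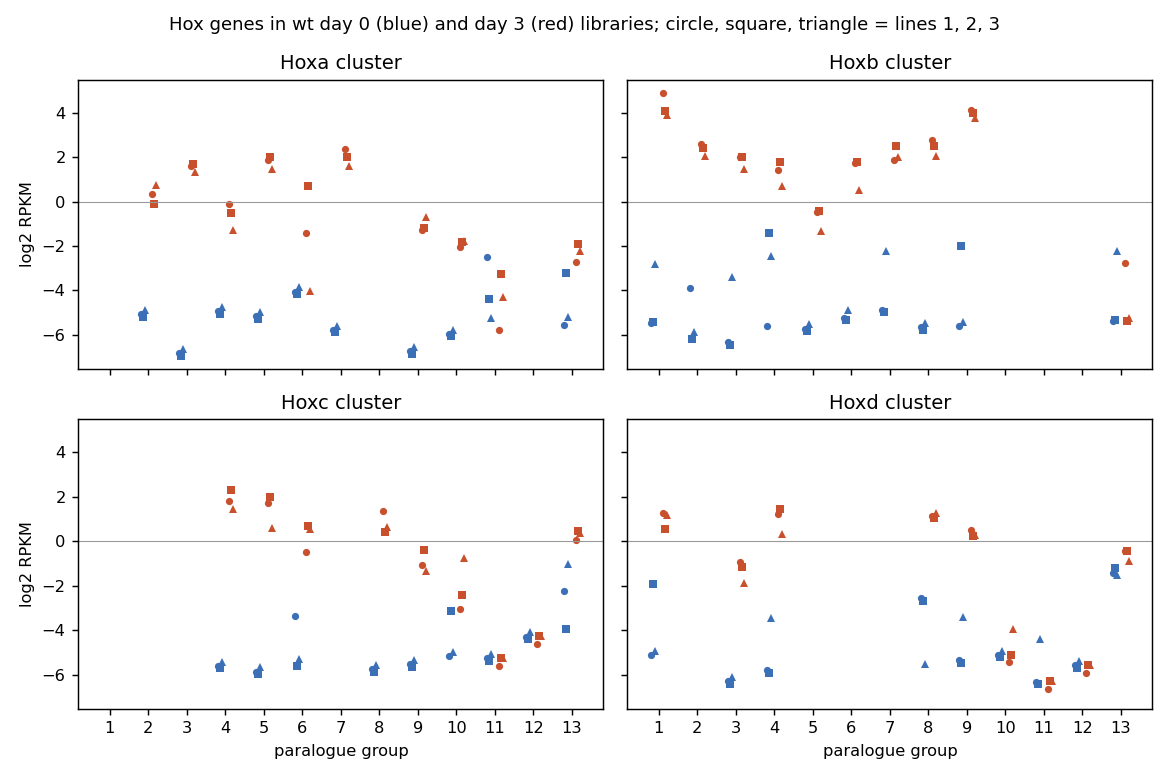
Log2 RPKM of 38 Hox genes as deposited (y axis) by paralogue group (x axis) in the 4 clusters, with blue for wt day 0, red for wt day 3 and circle, square and triangle for lines 1, 2 and 3. Groups 1 to 9 are higher on day 3, except Hoxa6 in line 3, while groups 10 to 13 stay near or below 0 log2 RPKM; values under about -4 are genes with 0 or few counts.

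Of 12 genes of groups 10 to 13, 3 passed the filter and 2 rose. Hoxc13 went from 0.562, 0.175 and 1.29 to 2.54, 3.46 and 3.27 CPM (2.21 ± 0.66, adjusted p = 0.0125, not called without line 2) and Hoxa10 from 0 counts to 0.772, 0.972 and 0.968 CPM, at least 14.01-fold higher. Hoxd13 had 0.999, 1.16 and 0.9298 and 1.77, 1.88 and 1.39 CPM, not called, and Hoxc11, Hoxc12 and Hoxd12 had 0 counts in all 6 libraries, where 3 counts are 0.136 to 0.215 CPM in a library. The antisense transcript Hoxaas3 was among the 10 largest rises (at least 590-fold, 42.4, 38.8 and 29.7 CPM on day 3), and its exons overlap those of Hoxa3 and Hoxa7 on the other strand. Because the files do not say which libraries were stranded, reads of such overlapping genes cannot be assigned with certainty, and Hoxd3 and Hoxd4 share exons on the same strand.

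Streak, mesoderm and neural genes beyond the NMP state were low. Of the 8 primitive streak genes, Mixl1, a homeobox factor of the streak, went from 0, 0.466 and 0.286 to 10.99, 7.05 and 5.87 CPM (4.94 ± 0.64, adjusted p = 3.38e-05) and Foxa2, of node and endoderm, from 0.874, 2.39 and 4.51 to 8.22, 21.2 and 20.5 CPM (2.69 ± 0.49), Eomes fell (-0.83 ± 0.29, not called when any of 4 single libraries was left out), and Gsc and Mesp1 had 0 counts in all 6 libraries. Of the 14 presomitic genes, 5 rose, 2 fell and 5 were below the filter (median log2 fold change 1.42 over 9). Tbx6, the factor that sets mesodermal against neural fate, went from 1.31, 0.466 and 0 to 10.03, 5.65 and 3.99 CPM (3.43 ± 0.73, adjusted p = 0.00163), and Msgn1, of presomitic mesoderm, from 0, 0.291 and 0 to 11.3, 9.36 and 3.27 CPM (6.16 ± 0.82). For both, line 1 was highest and line 3 lowest on day 3. Few neural genes rose, with 1 of 13 higher, 4 lower and 5 below the filter. Pax6 fell from 5.37, 3.96 and 2.79 to 0.681, 0.729 and 1.27 CPM (-2.18 ± 0.50, adjusted p = 0.00273), while Sox1 gave 2.19, 2.04 and 0.358 and 2.18, 1.22 and 1.88 CPM, not called. Hes5, the Notch target that was the 1 to rise, had 0 counts on day 0 and 1.14, 1.34 and 1.21 CPM on day 3. Of 10 anterior neural genes 7 were below the filter, and Hesx1 was the 1 called, as lower (-2.61 ± 0.73, not called without line 2 or without line 3).

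Markers of other cell types moved between the days too. Of 18 genes of the extraembryonic endoderm 12 rose, none fell, 3 were not called and 3 were below the filter (median log2 fold change 1.3), and their summed level was 1907 to 3259 CPM on day 0 and 4537 to 9025 CPM on day 3. Col4a1, the basement membrane collagen, went from 543, 432 and 868 to 1675, 3081 and 3156 CPM (2.10 ± 0.26, adjusted p = 2.05e-05), and it shares exon positions with Col4a2 on the other strand. Sox17 went from 7.18, 8.26 and 13.5 to 21.7, 43.9 and 38.1 CPM (1.84 ± 0.28) and Gata6 from 10.7, 15.1 and 20.7 to 17.8, 41.6 and 45.4 CPM (1.17 ± 0.31, adjusted p = 0.00704, not called without line 2). On day 3 line 1, the highest for T and the Cdx genes, was the lowest of the 3 lines in each of these. Dab2 and Cubn, of the endocytic apparatus of visceral and parietal endoderm, rose by 1.53 ± 0.24 and 1.28 ± 0.21 on the log2 scale. The secreted products of visceral endoderm Afp, Apoa1 and Ttr were under 1 CPM in all 6 libraries, and Afp and Ttr had 0 counts on day 0.

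Placental genes appeared from 0 counts. The 10 largest rises by fitted log2 fold change were all from 0 counts in 3 of 3 day 0 libraries, so that their rank depends on the prior count, and Nkx1-2, with 2 counts on day 0, is not among them. Of these 10, 5 are protein-coding genes best known from placenta, a grouping made after their values were seen. Tpbpa, a marker of the spongiotrophoblast, read 49.1, 85.05 and 39.9 CPM on day 3 (at least 898-fold higher, adjusted p = 9.34e-08). Psg29, a pregnancy-specific glycoprotein, read 36.4, 65.98 and 25.7 CPM (at least 661-fold), Ctsj, a placental cathepsin, 30.2, 48.2 and 23.9 CPM (at least 529.7-fold), and Prl2b1, of the prolactin family, 23.3, 49.7 and 26.6 CPM (at least 506-fold). Pappa2, a protease of IGF binding proteins, read 14.2, 29.9 and 12.2 CPM (at least 288-fold), and the non-coding 1600012P17Rik, which shares exon positions with it, 16.4, 31.5 and 14.9 CPM. In each of the 6, line 2 was the highest on day 3. These families have close copies, yet 99.2% to 100% of the 75-base windows of the 5 coding genes occur in transcripts of no other gene. The trophoblast list did not follow them, with 1 of 9 higher (Tpbpa itself), 5 lower and 3 not called. Its stem cell factors Elf5 and Tfap2c fell (-2.15 ± 0.75 and -1.68 ± 0.13, Elf5 not called with the line as a block, adjusted p = 0.0673, nor without any of 5 single libraries), as did Ascl2, of the spongiotrophoblast precursor, from 28.5, 20.6 and 22.03 to 3.405, 3.16 and 3.51 CPM.

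Of 7 blood and endothelium genes 4 rose and 2 fell, among them Cdh5 (VE-cadherin), from 3.18, 4.25 and 2.93 to 47.3, 54.4 and 28.7 CPM (3.64 ± 0.26, adjusted p = 2.28e-07), and Gata1, which fell to 0, 0 and 0.484 CPM. The summed level of that list went from 21.2 to 22.8 CPM up to 60.1 to 106 CPM. Neural crest genes (2 of 6 higher, with Sox10 under 0.2 CPM throughout) summed to 12.2 to 15.96 CPM and fibroblast genes (2 of 7 higher, with Lum at 0 counts throughout) to 24.3 to 39.5 CPM on day 3. Of 13 germline genes 8 fell and 2 rose, and of the 2-cell-like genes 6 of 12 in the table passed the filter and 0 were called, in edgeR and also in DESeq2, with Usp17lc alone at an unadjusted p under 0.05 (edgeR adjusted p = 0.0715), called without line 3 of day 0 or line 1 of day 3 (adjusted p = 0.0499 and 0.0421). Several genes of that list share most of their sequence with copies (12.6% of the 75-base windows of Zscan4e occur in no other gene), so that their counts depend on how shared reads were treated. The part of the endoderm, placental and endothelial transcripts in the other results was not tested.

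Of 14 FGF ligands and receptors, Fgf8 was the 1 that rose, 6 fell and 6 were not called (median log2 fold change -0.76). Fgf4, the autocrine ligand of ES cells, went from 221, 249.7 and 253 to 38.3, 21.3 and 27.3 CPM (-3.05 ± 0.18, adjusted p = 4.33e-08). Fgfr2 fell (-1.26 ± 0.15) and Fgfr1 had 96.01, 68.5 and 73.6 and 122, 64.3 and 70.1 CPM, not called. Of 14 ERK feedback genes 6 rose and 3 fell. Etv5, an ETS factor, fell from 298, 298 and 280.2 to 72.4, 61.0 and 60.5 CPM (-2.17 ± 0.10, adjusted p = 8.98e-09), whereas the related Etv4 rose (0.74 ± 0.14), as did the receptor antagonist Il17rd (1.74 ± 0.12) and the phosphatase Dusp4 (1.22 ± 0.12). The Sprouty genes Spry2 and Spry4 fell (-0.94 ± 0.12 and -1.52 ± 0.10).

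Of 10 Nodal pathway genes 6 fell and 1 rose (median log2 fold change -2.31). Nodal, the TGF-beta ligand, went from 57.3, 52.1 and 60.9 to 9.94, 5.83 and 10.5 CPM (-2.69 ± 0.20, adjusted p = 3.29e-07) and its antagonist Lefty2 from 52.8, 43.1 and 58.9 to 9.04, 5.103 and 10.8 CPM (-2.63 ± 0.23, adjusted p = 1.48e-06). Of 13 BMP genes 6 fell and 4 rose (median log2 fold change -1.78). Bmp4 went from 56.1, 52.4 and 53 to 2.77, 3.58 and 3.87 CPM (-3.99 ± 0.17, adjusted p = 4.21e-09) and the BMP target Id1, an inhibitor of bHLH factors, from 192, 97.6 and 114 to 13.8, 21.2 and 21.2 CPM (-2.85 ± 0.24), and Id2 and Id3 fell as well (-3.21 ± 0.16 and -3.48 ± 0.26). Bmp7 rose from 1.44, 1.57 and 1.14 to 21.98, 15.3 and 16.9 CPM (3.69 ± 0.28, adjusted p = 3.42e-07).

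Genes of retinoic acid handling rose more often than not, 7 of 12 against 2 that fell (median log2 fold change 1.87). Crabp2, a retinoic acid binding protein, went from 15.6, 22.6 and 17.3 to 76.4, 66.8 and 70.02 CPM (1.94 ± 0.15, adjusted p = 5.13e-07). Aldh1a2, which makes retinoic acid in mesoderm, went from 1.62, 1.57 and 2.86 to 11.8, 8.93 and 5.26 CPM (2.11 ± 0.39), while the receptors Rara and Rarg fell (-1.08 ± 0.25 and -0.89 ± 0.16). In the Notch pathway 6 of 13 rose and 2 fell (median log2 fold change 0.94). Hes1, a Notch target, rose from 13.1, 10.8 and 8.01 to 28.9, 35.2 and 37.7 CPM (1.67 ± 0.20, adjusted p = 1.69e-05), the ligand Dll1 rose (0.94 ± 0.24, not called without line 1), and the receptor Notch2 had 40.5, 38.8 and 40.1 and 40, 40.5 and 42.1 CPM, not called.

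Adhesion genes changed in part. Cdh1 (E-cadherin) fell from 518, 499.8 and 447 to 361, 196 and 263 CPM (-0.84 ± 0.17, adjusted p = 0.0011) and Cdh2 (N-cadherin) rose from 6.12, 7.62 and 6.37 to 68.8, 45.9 and 39.4 CPM (2.94 ± 0.22, adjusted p = 3.32e-07). By counts, Cdh1 still exceeded Cdh2 in each line on day 3. Of 13 epithelial genes 7 fell and 5 rose, with Grhl2, an epithelial transcription factor, among those that fell (-2.18 ± 0.14) and the tight junction gene Cldn6 among those that rose (1.5 ± 0.12). Of 10 genes of mesenchymal transition 4 rose and 2 fell, with Zeb2 from 2.56, 2.095 and 1.93 to 26.1, 21.8 and 18.6 CPM (3.33 ± 0.24) and Snai1 at 9.55, 5.18 and 6.51 and 4.45, 8.57 and 3.81 CPM, not called. Contractile genes rose in 8 of 11 cases and Ccn2, a matrix protein that YAP induces, fell (-1.15 ± 0.15).

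Most genes of the DNA methylation enzymes fell. Of 9 genes 7 fell and 1 rose (median log2 fold change -1.91). Dnmt3l, the cofactor of de novo methylation, went from 948, 1051 and 1135 to 81.9, 72.7 and 97.2 CPM (-3.64 ± 0.12, adjusted p = 8.24e-10), Dnmt3b from 930.5, 956 and 907 to 176, 139 and 168 CPM (-2.53 ± 0.10) and Dnmt3a from 462, 474 and 479 to 138, 101 and 136 CPM (-1.91 ± 0.12). The maintenance enzyme Dnmt1 and its partner Uhrf1 fell less (-0.50 ± 0.09 and -0.46 ± 0.09). Among the dioxygenases that oxidise methylcytosine, Tet1 and Tet2 fell (-2.54 ± 0.10 and -2.60 ± 0.12), and Tet3 rose from 12.98, 17.9 and 17.9 to 40.6, 53.95 and 43.1 CPM (1.49 ± 0.17, adjusted p = 1.37e-05).

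Of 12 genes of Polycomb repressive complex 2, 7 fell and 2 rose (median log2 fold change -0.63). The catalytic subunit Ezh2 had 204, 241 and 236 CPM on day 0 and 227, 214 and 216 CPM on day 3 (adjusted p = 0.671), with overlapping groups. Accessory subunits fell, Jarid2 from 694, 738 and 758 to 126, 108 and 114 CPM (-2.66 ± 0.10, adjusted p = 1.33e-09), Phf19 from 115, 124 and 131 to 6.36, 2.49 and 9.25 CPM (-4.35 ± 0.30, adjusted p = 1.63e-07) and Epop (-1.71 ± 0.14), and the second catalytic paralogue Ezh1 rose (0.62 ± 0.14, not called without line 3). Of 19 genes of Polycomb repressive complex 1, 7 rose and 6 fell (median log2 fold change 0.34), beside 27% and 26.6% of all genes tested. Phc1 fell from 508, 506 and 508 to 157, 118 and 153 CPM (-1.83 ± 0.11, adjusted p = 6.3e-08) and Cbx7, the main chromobox protein of ES cells, too (-0.97 ± 0.10), while Bmi1 rose from 10.1, 11.2 and 9.37 to 17.8, 29.2 and 31.4 CPM (1.35 ± 0.22).

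Of 17 imprinted genes 8 rose and 5 fell (median log2 fold change 0.38), beside 27% and 26.6% of all genes tested. Sgce rose from 9.05, 13.2 and 10.01 to 92.5, 69.9 and 77.8 CPM (2.90 ± 0.17, adjusted p = 4.89e-08), whereas its neighbour Peg10 had 1893, 2033 and 2088 and 2238, 2168 and 2232 CPM, not called. Grb10, an adaptor that restrains insulin signalling, rose from 75.5, 112 and 77.8 to 329, 299 and 296 CPM (1.80 ± 0.14), and Snrpn fell from 389, 374 and 350 to 111, 71.6 and 112 CPM (-1.92 ± 0.15, adjusted p = 4.65e-07). Dlk1 had 0 counts in all 6 libraries. The maternal and paternal alleles were not told apart in these counts.

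Sterol genes rose nearly throughout. Of 18 genes of cholesterol synthesis and its regulation 16 rose, none fell and 2 were not called (median log2 fold change 0.83). Msmo1, a sterol oxidase, went from 92.5, 99.5 and 80.4 to 372, 285 and 350.4 CPM (1.89 ± 0.12, adjusted p = 9.76e-08) and Hmgcs1, an early enzyme of the pathway, from 190.5, 249 and 236 to 572, 469 and 559.6 CPM (1.25 ± 0.12, adjusted p = 2.31e-06). The day 0 medium held serum and the day 3 medium was N2B27, and any part of the medium in this rise was not tested.

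In glycolysis 8 of 17 genes rose and 3 fell (median log2 fold change 0.16), against 27% and 26.6% of all genes tested. Slc2a3 (GLUT3), a neuronal and embryonic glucose transporter, went from 810.5, 872 and 896 to 3861, 4034 and 4399 CPM (2.25 ± 0.09, adjusted p = 1.82e-09), the largest gain in CPM of any called gene. Pgk1 rose (0.95 ± 0.09) although 32.5% of its 75-base windows occur in no other gene, and Pfkp, an isoform of phosphofructokinase, fell from 422, 418 and 420.1 to 186, 184 and 159 CPM (-1.25 ± 0.09). Of 13 genes of threonine, serine and one-carbon metabolism 6 fell and 2 rose (median log2 fold change -0.22). Tdh, the threonine dehydrogenase on which mouse ES cells depend, fell from 227, 219 and 236 to 32.5, 19.5 and 23.8 CPM (-3.16 ± 0.16, adjusted p = 1.5e-08). Of 13 mitochondrially encoded genes 3 fell and 9 were not called. Their share of the counts was 0.630% to 0.756% on day 0 and 0.448% to 0.630% on day 3. Both depend on how reads shared with copies were treated, since 0.5% of the 75-base windows of mt-Co2 and of mt-Atp6 and 0.1% of those of mt-Co3 occur in no other gene.

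Among the G1 cyclins and CDK inhibitors 5 of 14 rose and 5 fell (median log2 fold change 0.25), against general shares of 27% and 26.6%. Cyclin D2 (Ccnd2) rose from 9.93, 12.5 and 18.5 to 149.8, 219 and 192 CPM (3.78 ± 0.21, adjusted p = 3.01e-08) while the other D cyclins fell, Ccnd3 from 368, 298 and 329 to 78.8, 88.7 and 99.8 CPM (-1.90 ± 0.12) and Ccnd1 (-0.92 ± 0.10). Cyclin E1 (Ccne1), high throughout the cycle of ES cells, fell from 365, 416 and 399 to 75.3, 72.6 and 73.2 CPM (-2.42 ± 0.09, adjusted p = 2.06e-09). The CDK inhibitor p21 (Cdkn1a) rose from 36.6, 42.5 and 36.5 to 108, 96.3 and 96.9 CPM (1.38 ± 0.11). Of 12 p53 targets, Cdkn1a among them, 4 rose and 5 fell, with Ccng1 among the former (1.21 ± 0.11) and Bax among the latter (-1.04 ± 0.11).

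The genes that gained or lost the most CPM were of several kinds. After Slc2a3, the largest gains in CPM were those of the elongation factor Eef1a1, from 6707, 7569 and 7032 to 10030, 10313 and 9919 CPM, Col4a1, the stearoyl-CoA desaturase Scd2, from 384, 406 and 426 to 1715, 1562 and 1673 CPM, and the RNA-binding protein Grsf1. Grsf1 went from 128, 159.6 and 133 to 1607, 1241 and 1057 CPM (3.21 ± 0.15, adjusted p = 7.49e-09). The largest losses were those of the chaperones Hsp90aa1, from 4026, 5194 and 4916 to 2087, 1878 and 2213 CPM, and Hspa8, of Pou5f1, of nucleolin (Ncl) and of Trim28. Trim28 (KAP1), the corepressor that KRAB zinc finger proteins recruit to retroelements, went from 2689, 2519 and 2741 to 599, 495 and 530 CPM (-2.29 ± 0.09, adjusted p = 2.43e-09). For Hsp90aa1 and Eef1a1, 46.9% and 58.3% of the 75-base windows occur in no other gene, so that their counts depend on how reads shared with copies were treated.

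Further genes appeared or vanished. Of the 10 largest rises the remaining ones were Foxb1, a forkhead factor of hindbrain and caudal neural tissue, at 23.1, 21.4 and 19.2 CPM on day 3 (at least 337-fold higher, adjusted p = 4.93e-08), and the non-coding Gm45889 at 80.5, 88.4 and 40.3 CPM (at least 1113-fold). Of the 10 largest falls, Foxd3 led, followed by Msc, a bHLH repressor, from 11.8, 7.57 and 6.51 CPM to 0 counts (at least 159-fold lower, adjusted p = 2.2e-06). Krt42, a type I keratin, went from 22.3, 15.9 and 20.7 to 0.227, 0 and 0 CPM (-7.66 ± 0.53, adjusted p = 1.88e-07) and Glod5 from 19.1, 15.7 and 13.8 to 0.0454, 0.121 and 0.302 CPM (-6.71 ± 0.45). They also included the protease Tmprss11d, the calcium release channel Ryr3 and the non-coding 9630028I04Rik, 4930591A17Rik and 4930444M15Rik, at 2.27 to 14.6 CPM on day 0 and at most 1 count in any day 3 library.

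**Figure D4:**
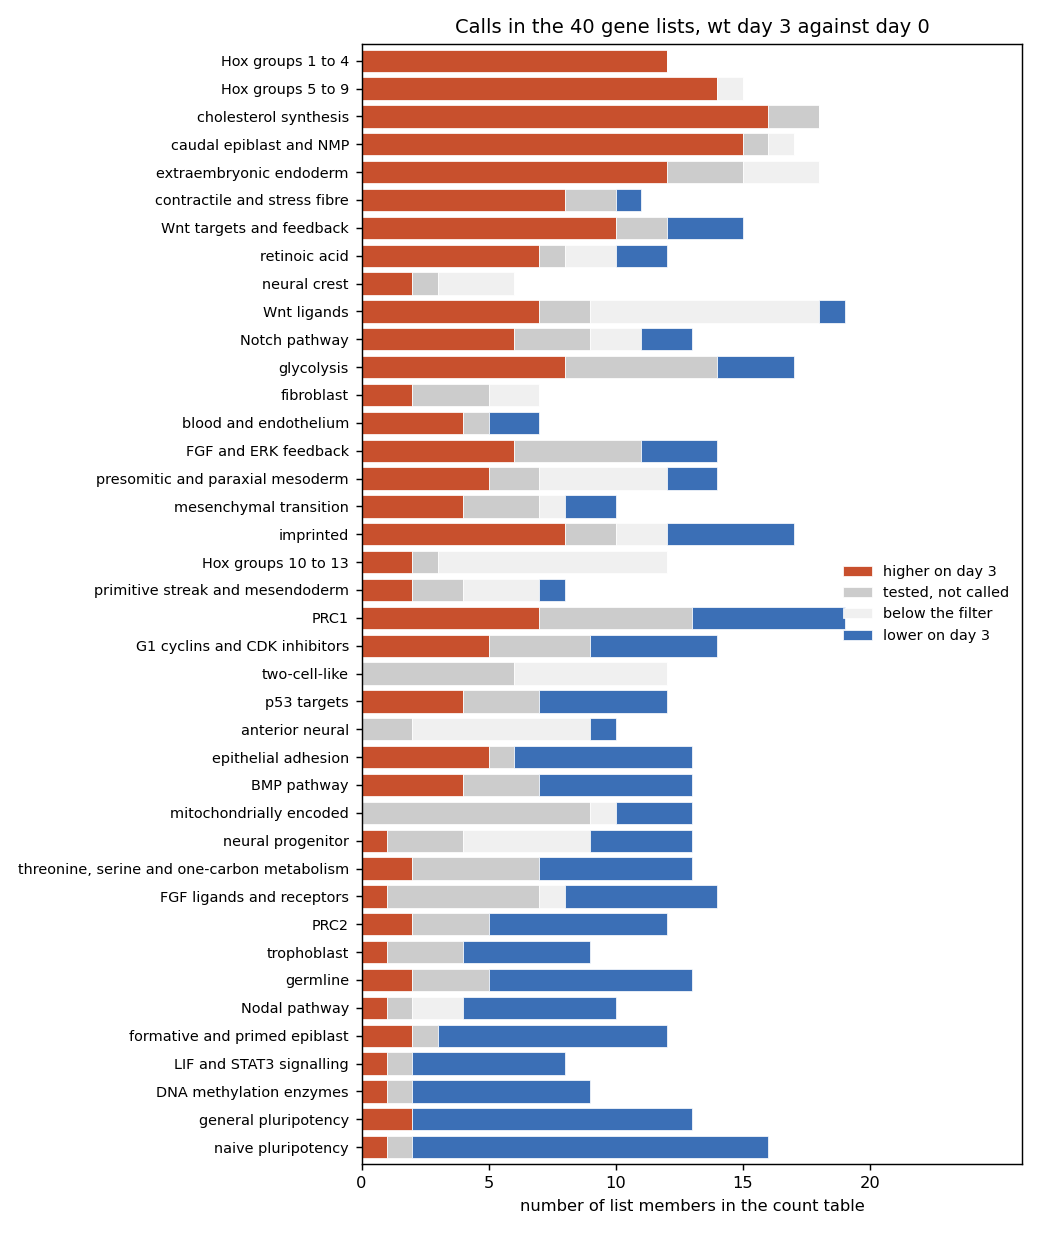
Number of members of each of the 40 gene lists in the count table (x axis) that were called higher on day 3 (red), tested and not called (grey), below the filter on low counts (pale) or called lower (blue), ordered by the share higher minus the share lower. The Hox groups 1 to 9, cholesterol synthesis and the caudal list stand at the top, and naive pluripotency at the bottom, with 14 of 16 lower.

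The net change hides the order of events, for which the 6 wt libraries of day 2 and day 2.5 give the levels. Among all 12 wt libraries, 10050 of 16577 genes tested (60.6%) differed between at least a pair of the 4 days. Several genes had a far higher mean on day 2.5 than on day 2. T read 0.454 ± 0.5497 CPM on day 2 and 304 ± 135 on day 2.5 (mean ± SD, n = 3), Nkx1-2 1.08 ± 1.097 and 202 ± 56.9, and Axin2 6.84 ± 1.65 and 136 ± 52.9. For these 3 genes the day 3 mean was below that of day 2.5, and for Dkk4 it went from 97.4 ± 8.61 to 18.4 ± 7.13 CPM. Hoxb9, at 9.41 ± 2.41 CPM on day 2.5, and Rspo3, at 0.633 ± 0.206, had higher means on day 3. Esrrb was at 17.8 ± 3.15 CPM by day 2, whereas Pou5f1 still had 799.6 ± 122 CPM on day 2 and 701 ± 168 on day 2.5. Tpbpa, at 25.5 ± 7.61 CPM, and Col4a1, at 2656 ± 829 CPM, were above their day 0 means on day 2. These differences between neighbouring days were not tested one by one, and the shallowest of the wt libraries, with 7.10 M counts, is of day 2.5.

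Of all genes tested among the 4 days, 60.6% differed. Picking genes with little change between day 0 and day 3 lowers that share by construction. Of 5220 such genes, not called between those days and within 0.5 on the log2 scale, 1767 differed among the 4 days. The 5 with the widest range were Trim66, Sox1, Spon1, Cxcl12 and Ntn1. Sox1, the early neural factor, had 1.54 ± 1.02 CPM on day 0, 12.03 ± 3.48 on day 2, 0.966 ± 0.288 on day 2.5 and 1.77 ± 0.512 on day 3. The chromatin reader Trim66 had 21.7 ± 6.69 CPM and the chemokine Cxcl12 66.6 ± 8.11 CPM on day 2, against 4.05 ± 0.481 and 11.1 ± 2.04 CPM on day 0. Spon1, a secreted matrix protein, peaked on day 2 as well, at 27.4 ± 4.71 CPM, and Ntn1 (netrin) was lowest on that day, at 5.63 ± 0.5797 CPM against 24.2 ± 3.18 and 28.8 ± 1.001 CPM on days 0 and 3, and was called as higher on day 3 without line 1 of day 0 (adjusted p = 0.0491).

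**Figure D5:**
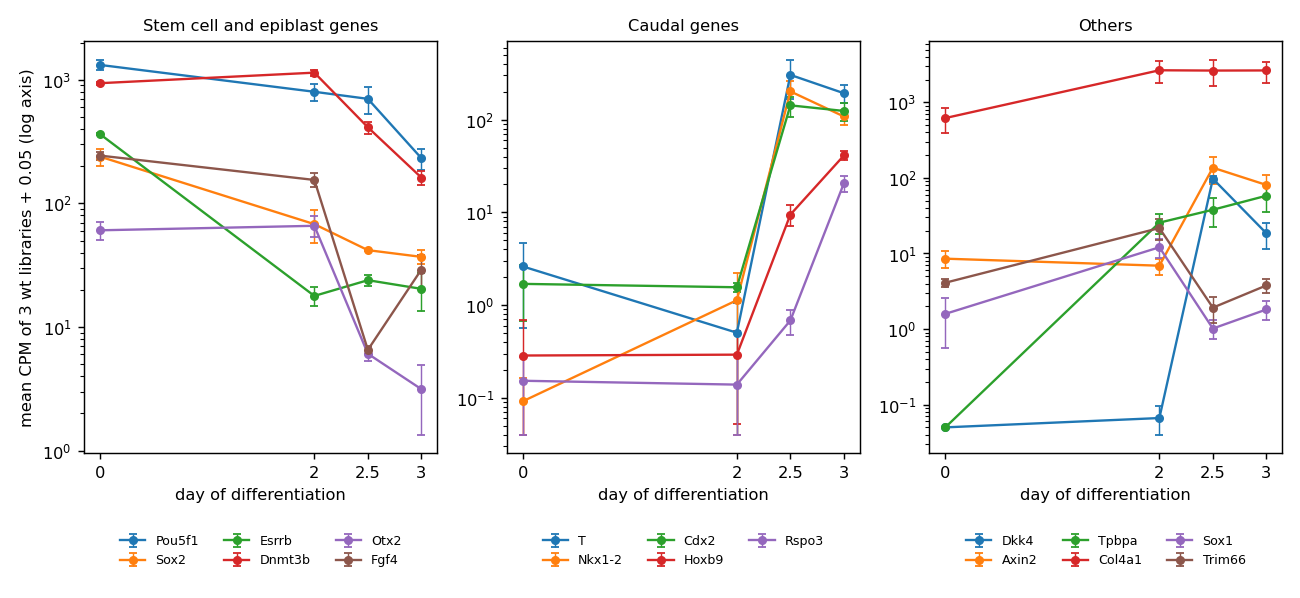
Mean CPM of the 3 wt libraries of each day plus 0.05 on a log axis (y axis) against the day of differentiation (x axis); bars are the SD, cut where they would reach the foot of the axis. Esrrb falls by day 2 and Pou5f1 later, T, Nkx1-2 and Cdx2 jump between day 2 and day 2.5, and Sox1 and Trim66 peak on day 2.

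The same span was measured in the 3 het lines, so that the wt change could be set against the het change in a fit of 12 libraries. Of 16549 genes tested, 0 differed in their change between genotypes (0%) at an adjusted p under 0.05 in edgeR, with 1455 at an unadjusted p under 0.05. With the line as a replicate block, since each line gave a library on both days, 4 genes passed (0.0242%). The T gene changed by 6.23 ± 0.39 in wt and 7.28 ± 0.42 in het on the log2 scale, a difference of 1.04 ± 0.63 (adjusted p = 0.637), Cdx2 by 6.23 ± 0.25 and 6.73 ± 0.27 (difference 0.50 ± 0.43) and Axin2 by 3.27 ± 0.24 and 3.05 ± 0.24 (difference -0.21 ± 0.32). Pou5f1 changed by -2.49 ± 0.13 and -1.97 ± 0.12 (difference 0.52 ± 0.17, adjusted p = 0.506). None of these 4 differences passed the test, which does not show that they were alike. With no filter on low counts beyond 1 count 173 genes passed, T and Pou5f1 among them.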

How the data were processed

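RNA was sequenced as single-end reads from mESC lines on days 0, 2, 2.5 and 3, 3 wt and 3 het lines a day. The authors trimmed reads with Trim Galore (0.4.4), aligned them to GRCm38.p6 with HISAT2 (2.0.5) and deposited raw counts per gene, quantified in SeqMonk, with no normalization. They also deposited log2 RPKM values for 39 Hox genes and 34 factors, used here for levels per length. Kits with and without strand information are named but not assigned to libraries. The 8 columns of the authors' group means were not used, and 0 per-sample columns were left unmatched. Counts on day 0 and day 3 of wt totalled 14.4 to 20.8 M (M, 1e6) a library, where 3 counts are 0.136 to 0.215 CPM, the floor used for genes at 0. For fold bounds the floor was 3 counts over the 3 libraries of a day. Floors and counting intervals (95%, exact binomial) cover counting error only.

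Counts were tested in R 4.3.3 with edgeR 4.0.16 (filterByExpr by group, TMM factors, quasi-likelihood test, Benjamini-Hochberg adjustment over all genes tested). The wt test used 6 libraries, the test of the het against the wt change 12 and the test among days 12, and the standard error of a log2 fold change was taken as its size over the square root of F. CPM were scaled by TMM factors. Replicates are lines, so that p-values measure the spread between 3 lines. Libraries of the same line number and genotype come from the same line and are thus paired by design, although the study states no block and the main test has none. Deviations from the group means correlated at 0.054 to 0.09 within lines and -0.074 to 0.018 between lines. The scripts were checked on simulated counts.

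The 40 gene lists and the comparison were chosen with earlier results of these data known. Named genes were list members, the 10 largest rises and falls among called genes with non-overlapping groups and a mean of at least 50 counts in the higher group, the 5 largest gains and losses of CPM, and the 5 genes with the widest range over days among those with no net change (log2 within 0.5). Gene models were GENCODE vM21 on GRCm38, which matched 35545 of 35591 genes of the table. Of a duplicated symbol the row with more counts was used. Promoter sequences of the 27025 genes with a window were from RefSeq (GRCm38.p6), and the Sp5, Tnfrsf19 and Zfp42 promoters were chosen for display after their matches were seen. Alternatives were DESeq2 1.42.0, other scaling and filters, a 2-fold threshold, all 12 wt libraries in the fit, thinned counts, the line as a block, and leaving out libraries or lines. Results for 4 genes are not reported here.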

Additional observations from a re-analysis of the deposited data

Results flagged for a closer look

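With the line as a replicate block, 4 genes changed differently from day 0 to day 3 in het and wt lines (edgeR quasi-likelihood test over 16549 genes), and without the block 0 did, beside 1455 at an unadjusted p under 0.05. With no filter beyond 1 count and no block, 173 genes passed, these 4 among them. Means are over 3 lines and differences are the het change minus the wt change with its SE. Lefty2, an antagonist of Nodal, went from 51.99 to 8.35 CPM in wt and from 44.4 to 19.7 CPM in het lines, a log2 difference of 1.47 ± 0.20 (adjusted p = 0.0375 with the block and 0.342 without it). Cldn4, a tight junction gene, went from 87.1 to 49.2 CPM in wt and from 74.5 to 84.6 CPM in het lines, a log2 difference of 1.00 ± 0.14 (adjusted p = 0.0375 with the block and 0.168 without it). The cell surface protein gene Igsf8 went from 50.5 to 29.1 CPM in wt and from 35.1 to 41.01 CPM in het lines, a log2 difference of 1.01 ± 0.15 (adjusted p = 0.0427 with the block and 0.372 without it). The nuclear non-coding RNA Malat1 went from 142 to 307 CPM in wt and from 229.7 to 224 CPM in het lines, a log2 difference of -1.22 ± 0.18 (adjusted p = 0.0375 with the block and 0.467 without it).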

How the results depend on the processing

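The number of genes called between wt day 3 and day 0 stayed between 7865 and 8682 under other scaling, other filters, thinned counts, DESeq2, all 12 wt libraries in the fit and the replicate block (8398), and no gene called in both turned direction. Library totals in place of TMM factors shifted all log2 fold changes by 0.09 and gave 4754 higher and 3610 lower. Tested against a 2-fold change, 2235 genes passed, 1157 higher and 1078 lower. Leaving out a library or a line gave 5762 to 8329 calls (2825 to 4239 higher, 2937 to 4092 lower), lowest without line 3. Of the change in het against wt, 173 genes passed with no filter beyond 1 count and 4 with the replicate block, against 0 in the other fits, those without a line included. Among the 4 days, 6696 to 9521 genes were called when a line was left out, the lowest without line 3. The causes were not tested.

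Of 158 genes checked by name, 142 were called in the main test, and none of these turned direction. Besides the 2-fold test, calls were lost for Elf5 (with the replicate block, all 12 wt libraries or no filter), Gbx2 (adjusted p = 0.0684 in the fit of 12 libraries) and Lef1 (0.0574 with library totals), and on leaving out a library or line for Elf5, Eomes, Gbx2, Lef1, Sall2 and Hesx1 and, without line 1, Dll1 (log2 0.66, adjusted p = 0.0528), without line 2, Gata6 (1.00, 0.0804) and Hoxc13 (1.65, 0.0823), and without line 3, Ezh1 (0.53, 0.0684), Lin28a (0.39, 0.0515) and Smchd1 (0.41, 0.0785). Without a library Fgf17, Ntn1 and Usp17lc became called, and Peg10 with library totals. Of 1440 counts of list members under alternatives, 1378 kept within 1 gene of the main count or within 1.5 times of it, and 62 did not. A gene at 0 counts may still have been present at up to 0.136 to 0.215 CPM (3 counts) in a library.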
